A study of Mus musculus with 6 samples.

Results

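The genes described here are the receptors, adaptor, caspases and gasdermins of the inflammasome, 10 genes chosen by symbol from the 20533 genes of a mouse colon expression table: Nlrp3, Nlrp6, Nlrc4, Aim2, Mefv, Pycard, Casp1, Casp4, Gsdmd and Gsdmc2. All 10 were found in the table and all passed the filter on low values. The tissue was the distal colon, taken from male C57BL/6 mice of wild-type genotype, aged 7 weeks, after 7 days on 2% dextran sulfate sodium (DSS) plus montmorillonite powder, on 2% DSS alone, or on water. DSS is a sulfated polysaccharide that damages the gut lining and serves as a model of colitis, and montmorillonite is an adsorbent clay mineral whose dose the labels do not state. Each of the 3 groups held 2 libraries, and the labels did not say whether they came from separate mice, so p-values measure the spread between libraries, which may be technical.

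Inflammasomes are cytosolic complexes of the innate immune system. A receptor that senses a microbial product or cell damage recruits the adaptor ASC, which clusters caspase-1. The active protease cleaves the precursors of the cytokines encoded by Il1b and Il18, and it cleaves gasdermin D, whose released part forms pores in the plasma membrane and can kill the cell by pyroptosis. In the gut, myeloid cells and the epithelium both use these complexes, with different receptors prominent in each.

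The gasdermin C genes Gsdmc2, Gsdmc3 and Gsdmc4 lie next to one another on chromosome 15 and are near copies, which bears on how far their reads can be told apart. The first 90 coding bases of each, spliced from the GRCm38 genome with the GENCODE M21 annotation, are shown here, with capitals at the 2 positions where the copies differ.
Gsdmc2: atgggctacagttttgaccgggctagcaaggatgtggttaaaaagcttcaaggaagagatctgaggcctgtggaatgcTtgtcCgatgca
Gsdmc3: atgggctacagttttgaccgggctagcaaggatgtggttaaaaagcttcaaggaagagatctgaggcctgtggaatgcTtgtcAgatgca
Gsdmc4: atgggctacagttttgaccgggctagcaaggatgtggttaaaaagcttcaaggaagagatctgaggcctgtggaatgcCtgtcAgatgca
Over the whole coding sequence Gsdmc2 was 97.1% identical to Gsdmc3 and 93.7% identical to Gsdmc4. Of all 50-base windows of the Gsdmc2 transcripts, 51.3% also occurred in another gene, in each case a gasdermin C gene. The values of these 3 genes are therefore uncertain one by one, and their sum is given beside them.

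Promoters are shown for Nlrp3 and Nlrp6, the receptor genes that moved furthest in opposite directions under DSS. Each sequence is the 250 bases upstream of a RefSeq transcription start in GRCm38.p6, on the gene's plus strand, with motif matches in capitals.
Nlrp3, chr11:59541319-59541568: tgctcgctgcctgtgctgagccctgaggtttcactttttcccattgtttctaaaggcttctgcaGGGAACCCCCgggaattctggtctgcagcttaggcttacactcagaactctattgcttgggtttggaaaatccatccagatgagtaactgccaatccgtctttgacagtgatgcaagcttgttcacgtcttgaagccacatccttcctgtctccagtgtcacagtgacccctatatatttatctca
Nlrp6, chr7:140920652-140920901: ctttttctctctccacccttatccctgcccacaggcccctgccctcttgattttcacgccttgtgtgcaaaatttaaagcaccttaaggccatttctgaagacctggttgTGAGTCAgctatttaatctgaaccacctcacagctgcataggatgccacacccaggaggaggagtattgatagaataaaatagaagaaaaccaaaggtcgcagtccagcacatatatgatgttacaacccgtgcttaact
Both strands were searched for 6 motifs, among them those of NF-kB and of the interferon-stimulated response element, which are given by name alone. The motif of AP-1, a factor of stress and growth signalling, was spelled TGANTCA. That of PU.1, a factor of myeloid and B cells, was GAGGAAGT. For the CDX factors of the intestinal epithelium the letters were TTTATG. The TATA box was searched as TATAAA. No motif contains another, though matches of different motifs may overlap. The Nlrp3 window shown held an NF-kB match, whereas the window of a second Nlrp3 start, chr11:59542436-59542685, held none of the 6 motifs. The Nlrp6 window held an AP-1 match. An NF-kB match occurred in 3.90% and an AP-1 match in 6.75% of the 32851 promoter windows of the same length. Of the 10 genes, 8 had a promoter entry. The windows of Aim2 and Pycard each held a PU.1 match, which 2.44% of all windows had, and those of Casp4 held NF-kB and CDX matches, the second in 10.8% of all windows. Those of Mefv, Casp1 and Nlrc4 held none of the motifs, and none of the 8 genes had a TATA box match (12.4% of all windows) or an interferon element match (2.98%). These matches describe letters in the window.

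The deposited values were normalised, each library's read counts having been divided by a single size factor. Recovered as whole reads, the libraries held 6395768 and 4494666 reads with DSS plus montmorillonite, 21481594 and 15212981 with DSS, and 8936826 and 3741494 with water. The 2 DSS plus montmorillonite libraries stood apart from each other. The correlation of log2 values across genes was 0.902 between them, against 0.951 between the DSS libraries and 0.964 between the water libraries. Replicate 1 correlated at 0.959 and 0.947 with the water libraries, whereas replicate 2 correlated at 0.948 and 0.954 with the DSS ones. These values are across genes, which do not replicate one another, and have no p-value. All 10 epithelial markers had reads in every library. Markers of stratified squamous epithelium summed to 119 and 7833 in DSS plus montmorillonite, 179 and 42728 in DSS, and 31.7 and 479.9 in water, so that replicate 2 was the higher in each group. Skeletal muscle markers were uneven as well, with 3626 in DSS plus montmorillonite replicate 1 and 2879.6 in DSS replicate 2 against 90.5 to 585 in the other libraries. The part of these tissues in the results below was not tested.

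The first question was how these genes differed after DSS. Genes were tested with limma on log2(value + 1) in a fit of the 4 libraries, and a gene was called at a Benjamini-Hochberg adjusted p below 0.05 over all 20307 genes tested. By this rule 2 of the 10 genes rose (Nlrp3 and Mefv), 4 fell (Nlrp6, Pycard, Casp1 and Gsdmc2), and 4 did not pass (Nlrc4, Aim2, Casp4 and Gsdmd). Of all genes tested, 15.1% passed, whereas 0 genes passed in the alternative fit of all 6 libraries. The median log2 fold change was -0.73 over the 10 genes and 0.10 over all genes tested. No gene passed in DSS plus montmorillonite against water or against DSS.

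**Figure D1:**
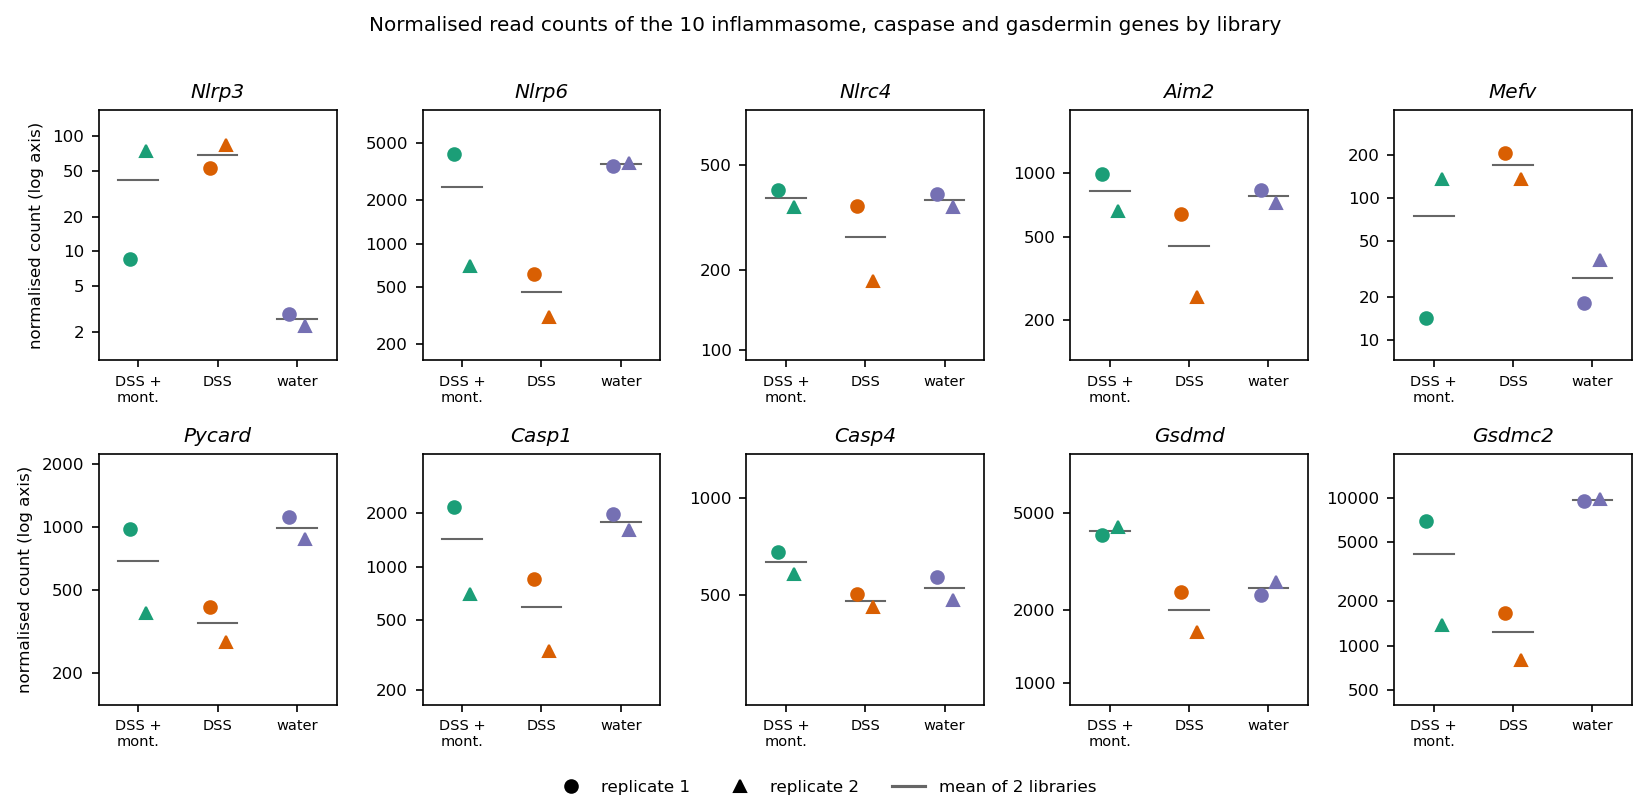
Normalised read count (log axis) of each of the 10 genes in every library, with DSS plus montmorillonite, DSS and water from left to right, circles for replicate 1, triangles for replicate 2, and a line at the mean of the 2 libraries. For Nlrp6, Gsdmc2 and Casp1, DSS plus montmorillonite replicate 1 lies near the water libraries and replicate 2 nearer the DSS libraries. For Gsdmd, and by a smaller margin for Casp4, both lie above every other library.

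Nlrp3, a receptor of potassium efflux and membrane damage that is best known from myeloid cells (ENSMUSG00000032691.14, GRCm38 chr11:59541568-59566956), had normalised counts of 8.63 and 74.5 in DSS plus montmorillonite, 52.9 and 83.4 in DSS, and 2.88 and 2.27 in water. Both DSS libraries and DSS plus montmorillonite replicate 2 were high, and both water libraries were close to 0. In DSS against water the log2 fold change was 4.24 ± 0.53 (SE, adjusted p = 0.00954). The water libraries held only 4 Nlrp3 reads in all, and the ratio of pooled reads was 24.2 with a 95% counting interval of 9.38 to 89.5, which covers counting error only. In DSS plus montmorillonite against water the pooled ratio was 14.0 (5.11 to 53.4), with replicate 1 at 3.35 and replicate 2 at 28.9 times the water mean. The groups did not overlap, but the difference did not pass (log2 2.92 ± 1.17, adjusted p = 0.629).

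Mefv, which encodes pyrin, a sensor of the activity of bacterial toxins (chr16:3707218-3718097), had 14.4 and 134.5 in DSS plus montmorillonite, 206 and 136 in DSS, and 18.2 and 36.4 in water. Replicate 1 of DSS plus montmorillonite was below both water libraries and replicate 2 was just below the lower DSS library. Its log2 fold change of DSS against water was 2.65 ± 0.45 (adjusted p = 0.0184).

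Summed markers of myeloid cells, of B cells and of T cells were higher in both DSS libraries than in both water libraries, as were Nlrp3 and Mefv. The 10 neutrophil markers summed to 199.9 and 9719 in DSS plus montmorillonite, 3617 and 14841 in DSS, and 54.7 and 91.0 in water, with 7 and 4 of the 10 at 0 in the water libraries. In DSS against water 7 of them rose and 3 did not pass. The 10 macrophage and monocyte markers summed to 96.5% and 266% of the water mean in DSS plus montmorillonite, and to 157% and 179.9% of it in DSS, and 5 of them rose in DSS against water. The 6 B cell markers summed to 53.7% and 402% of the water mean in DSS plus montmorillonite and to 1277% and 555% of it in DSS, none was at 0 in any library, and all 6 rose in DSS against water. The 8 T cell markers summed to 69.9% and 148% of the water mean in DSS plus montmorillonite and to 183% and 130% in DSS. Of these, 1 (Cd4) rose in DSS against water and 7 did not pass. In bulk tissue, more cells of a type and more RNA per cell cannot be told apart, and the part of these cells in the Nlrp3 and Mefv values was not tested.

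Nlrp6, a receptor prominent in the intestinal epithelium of mice, where it is linked to mucus secretion and control of the microbiota (ENSMUSG00000038745.15, chr7:140920902-140929192), had 4231 and 701 in DSS plus montmorillonite, 612 and 307 in DSS, and 3482 and 3618 in water. Replicate 1 of DSS plus montmorillonite was above both water libraries, and replicate 2 was close to the higher DSS library. Nlrp6 fell in DSS against water, with a log2 fold change of -3.03 ± 0.33 (adjusted p = 0.00750). It was -1.04 ± 0.88 in DSS plus montmorillonite against water (adjusted p = 0.718) and 1.99 ± 0.91 in DSS plus montmorillonite against DSS (adjusted p = 0.702).

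Aim2, a sensor of cytosolic DNA (chr1:173350879-173466040), had 998 and 661 in DSS plus montmorillonite, 641.5 and 258 in DSS, and 831 and 723 in water. Both DSS libraries were below both water libraries, but the log2 fold change of -0.93 ± 0.42 did not pass (adjusted p = 0.189). Nlrc4, which acts downstream of the NAIP receptors for flagellin and secretion system proteins (chr17:74425438-74459142), had 403 and 347 in DSS plus montmorillonite, 351 and 182 in DSS, and 389 and 348 in water. The groups overlapped in DSS against water, with a log2 fold change of -0.54 ± 0.33 (adjusted p = 0.319).

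Pycard, which encodes ASC (ENSMUSG00000030793.4, chr7:127989708-127993867), had 982 and 389 in DSS plus montmorillonite, 413 and 283 in DSS, and 1112 and 876 in water. Both DSS libraries and DSS plus montmorillonite replicate 2 were low. Pycard had a log2 fold change of -1.52 ± 0.25 in DSS against water (adjusted p = 0.0170). An antisense gene, Gm45205, overlaps 12.8% of its exon bases, and whether reads were counted by strand is not stated in the labels.

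Casp1, the protease that matures the cytokines (chr9:5298517-5307265), had 2162 and 698 in DSS plus montmorillonite, 848 and 330.3 in DSS, and 1973 and 1622 in water. Its DSS libraries were far apart, and both were below the water libraries. Casp1 had a log2 fold change of -1.76 ± 0.43 in DSS against water (adjusted p = 0.0470). This call was close to the threshold and was lost with edgeR (adjusted p = 0.0505), with library-size scaling (0.0651) and with TMM scaling (0.0531), over a range of 0.000256 to 0.184 in the alternatives run.

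Casp4, the mouse gene of caspase-11, which binds bacterial lipopolysaccharide in the cytosol (chr9:5308828-5336783), had 683 and 583 in DSS plus montmorillonite, 505 and 459 in DSS, and 570.1 and 482 in water. The 6 libraries lay within a narrow range, and the log2 fold change of DSS against water was -0.12 ± 0.18 (adjusted p = 0.685), with a positive sign (0.11) under library-size scaling. Casp1 and Casp4 lie side by side on chromosome 9, and 61.1% of their aligned coding bases were identical. None of the 50-base windows of Casp1 transcripts occurred in another gene.

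Gsdmd, which encodes gasdermin D, the pore-forming substrate of both inflammatory caspases (ENSMUSG00000022575.4, chr15:75862327-75867408), had 4060.3 and 4369.6 in DSS plus montmorillonite, 2356 and 1624 in DSS, and 2302 and 2602 in water. Both DSS plus montmorillonite libraries were above all 4 other libraries, as for Casp4, and the 2 replicates were close together. In DSS plus montmorillonite against water the log2 fold change was 0.78 ± 0.19 (unadjusted p = 0.0111, adjusted p = 0.629), and in DSS plus montmorillonite against DSS it was 1.11 ± 0.29 (unadjusted p = 0.0132, adjusted p = 0.691). Neither difference passed. Between DSS and water the log2 fold change was -0.32 ± 0.22 (adjusted p = 0.366), and the groups overlapped.

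Gsdmc2, a gasdermin C gene that mouse intestinal epithelial cells express (ENSMUSG00000056293.12, chr15:63824346-63845177), had 6944 and 1368 in DSS plus montmorillonite, 1663 and 801 in DSS, and 9511 and 9775 in water. Replicate 1 of DSS plus montmorillonite lay between the DSS and the water libraries, and replicate 2 lay within the DSS range. The log2 fold change of DSS against water was -3.06 ± 0.34 (adjusted p = 0.00800). Gsdmc3 had 3279 and 258 in DSS plus montmorillonite, 393 and 149.6 in DSS, and 3806 and 3741 in water (log2 -3.95 ± 0.43 in DSS against water, adjusted p = 0.00766). Gsdmc4, the most abundant of the 3, had 16542 and 3123 in DSS plus montmorillonite, 3650.2 and 1384 in DSS, and 20290.2 and 18856 in water (log2 -3.12 ± 0.44, adjusted p = 0.0122). Both copies fell with Gsdmc2. The sum of the 3 genes does not depend on how reads shared only among them were split. It still depends on whether reads with several matches were counted, which the labels do not state, and on windows shared with Gsdmc, a further copy outside the sum. The sum was 81.1% and 14.4% of the water mean in DSS plus montmorillonite and 17.3% and 7.08% of it in DSS. Fitted as 1 gene, an alternative chosen after the data were seen, the sum fell by 3.18 on the log2 scale in DSS against water (SE 0.41, adjusted p = 0.0106).

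**Figure D2:**
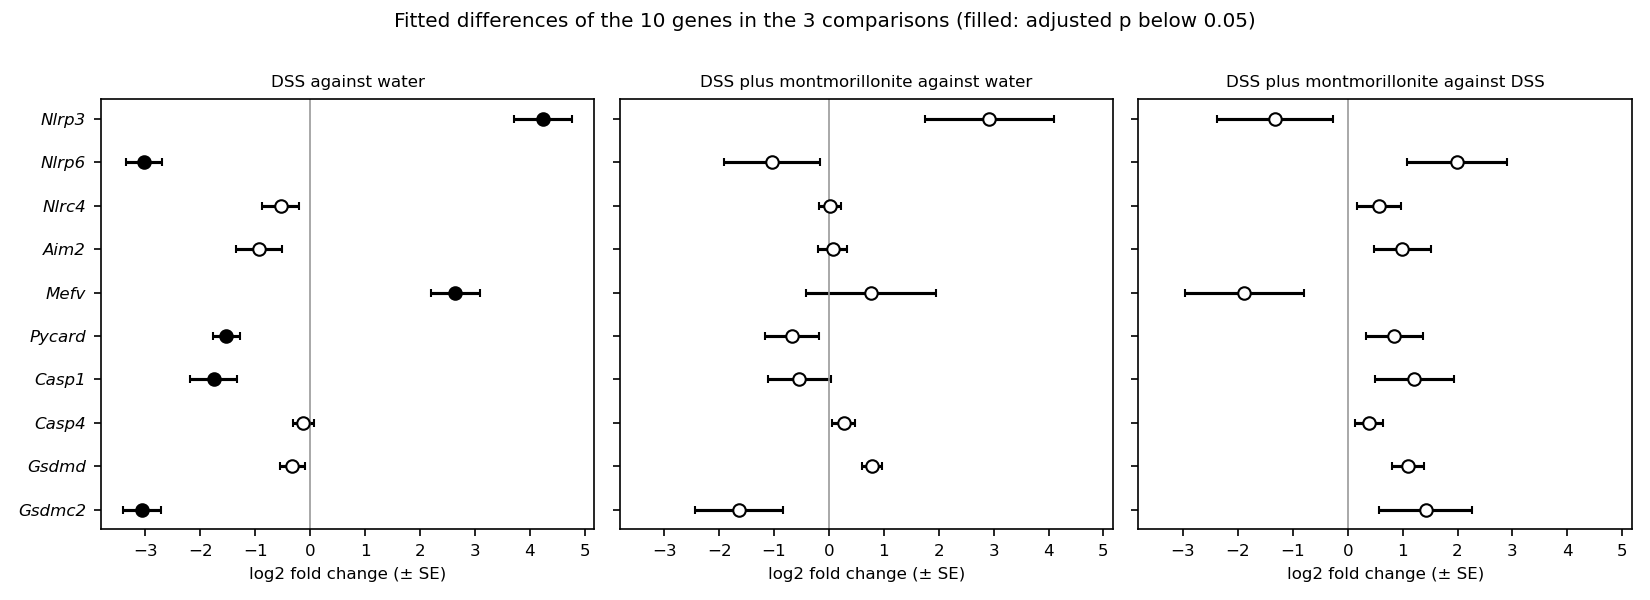
Log2 fold change with its standard error (x axis) of the 10 genes in DSS against water, DSS plus montmorillonite against water, and DSS plus montmorillonite against DSS, from limma fits of 4 libraries each, with filled points for an adjusted p below 0.05. Only the DSS against water panel holds filled points, 2 to the right of 0 and 4 to the left, and the standard errors of Nlrp3, Nlrp6, Mefv and Gsdmc2 are wider in the other 2 panels.

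The calls in DSS against water rested on both DSS libraries, and for all called genes but Nlrp3 and Mefv on both water libraries as well. No gene of the 10 passed without DSS replicate 1 or without DSS replicate 2, Nlrp3 alone passed without water replicate 1, and Nlrp3 and Mefv passed without water replicate 2. None passed when the DSS plus montmorillonite libraries entered the fit, where the smallest adjusted p over all genes was 0.0576. Every one of these fits kept the sign of the 6 called genes. With edgeR 5 of the 10 genes passed, against 14.7% of all genes, and with DESeq2 6 passed, against 19.8%. Of the 10 genes, 7 had DSS and water libraries that did not overlap, against 62.4% of all genes tested. In 2 of them both DSS libraries were the higher (33.9% of all genes) and in 5 the lower (28.5%).

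In DSS plus montmorillonite against water, none of the 10 genes passed by limma, and 0% of all genes did. The smallest adjusted p over all genes was 0.629, and 1576 genes had an unadjusted p below 0.05. With edgeR 0 genes passed (1636 at an unadjusted p below 0.05), and with DESeq2 202 passed (0.995%), none of them among the 10. Both libraries lay above both water libraries for Nlrp3, Casp4 and Gsdmd and below them for Gsdmc2. These were 4 of 10 genes without overlap, against 40.8% of all genes tested (21.5% higher and 19.2% lower). For Nlrp3 this rested on 6 reads in DSS plus montmorillonite replicate 1, against 3 and 1 in the water libraries. For Casp4 the nearest libraries stood at 583 and 570. Without either DSS plus montmorillonite library in turn, none of the 10 genes passed. The median log2 fold change was 0.05 over the 10 genes and 0.06 over all genes.

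In DSS plus montmorillonite against DSS, none of the 10 genes passed by limma either, and 0% of all genes did. Here 1444 genes had an unadjusted p below 0.05. With edgeR 0 genes passed (1333 at an unadjusted p below 0.05), and with DESeq2 68 passed (0.335%), none among the 10. Both DSS plus montmorillonite libraries lay above both DSS libraries for Nlrp6, Aim2, Casp4 and Gsdmd and below them for Mefv. These were 5 of 10 genes without overlap, against 39.9% of all genes tested (19.4% higher and 20.6% lower). For Mefv the nearest libraries stood at 134.5 and 135.7, closer than the 1.82 that 1 read was worth in DSS plus montmorillonite replicate 2. Without DSS plus montmorillonite replicate 2, 285 genes passed, and among the 10 Nlrp6 was higher (log2 3.28, adjusted p = 0.0486) and Mefv lower (log2 -3.45, adjusted p = 0.0475) than in DSS. Over all the alternatives run, the adjusted p ran from 0.0486 to 1 for Nlrp6 and from 0.0475 to 1 for Mefv. Without replicate 1 instead, 0 genes passed. Each such fit holds 1 DSS plus montmorillonite library, which is assumed to vary like the DSS libraries. The 2 comparisons that contain DSS plus montmorillonite share those libraries, so their values are not independent.

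Per kilobase of exon, Gsdmc2 had the highest mean level of the 10 genes in water, with 4165 normalised counts per kilobase, followed by Casp1 with 1201 and Gsdmd with 1031, which overlapped. Nlrp6 (699), Pycard (261) and Aim2 (222) came next, of which Pycard and Aim2 overlapped. Casp4 (142), Nlrc4 (76.6), Mefv (8.40) and Nlrp3 (0.635) were lowest and did not overlap one another. In DSS the order began with Gsdmd (837), Gsdmc2 (532) and Casp1 (394), of which neighbours overlapped. Casp4, Aim2, Pycard, Nlrp6, Nlrc4 and Mefv followed between 130 and 52.5, each overlapping the next, and Nlrp3 was lowest at 16.8. Under DSS plus montmorillonite Gsdmc2 (1795) and Gsdmd (1773) were highest and overlapped, and Nlrp3 (10.2) was again lowest, overlapping Mefv (22.9). The length used was the union of all annotated exons of a gene, 3800 bases for Pycard and 1497 for Casp1. Where the expressed transcript is shorter than this union, the level per kilobase is understated, so the order between genes is uncertain.

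The genes that fell did so beside the epithelial markers. The 10 epithelial markers, which include Epcam and the keratin genes Krt8 and Krt20, summed to 106% and 58.5% of the water mean in DSS plus montmorillonite and to 40.6% and 27.2% of it in DSS. In DSS against water all 10 of them fell, as did 7 of 8 mature colonocyte markers, and 1 of 7 goblet cell markers. All 7 goblet cell markers had a negative log2 fold change (median -1.14), and they summed to 55.9% and 22.0% of the water mean in DSS. The median log2 fold change was -1.51 over the epithelial and -2.17 over the mature colonocyte markers, which summed to 32.1% and 22.5% of the water mean in DSS. Slc26a3 averaged 942 in DSS and 9603 in water, and Aqp8 552 and 6133, whereas Car1 (5898 and 6444) did not pass. The part of mature colonocytes in the values below was not tested. Dividing each gene by this epithelial marker sum gives a description, with no test, of its level per epithelial signal. Pycard then stood at 102% and 105% of the water mean in DSS, within the range of the water libraries (113% and 86.6%). Casp1 stood at 116% and 67.4% in DSS, against 111% and 88.7% in water. Nlrp6 remained below water, at 42.5% and 31.8% in DSS against 99.6% and 100.4% in water, and so did the gasdermin C genes, with Gsdmc2 at 42.5% and 30.5%, Gsdmc3 at 25.6% and 14.6%, and Gsdmc4 at 45.9% and 25.9% in DSS.

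Casp4 stood at 236% and 320% and Gsdmd at 237% and 244% of the water mean on that scale in DSS. As deposited, Casp4 was at 96.0% and 87.3% and Gsdmd at 96.1% and 66.2%, and both genes overlapped between DSS and water. The divisor was itself at 40.6% and 27.2% of the water mean in DSS. A gene unchanged as deposited therefore stands well above the water mean on this scale. Other cell types also express Casp4 and Gsdmd, and their part was not tested. On the same scale, DSS plus montmorillonite replicate 2 stood at 33.8% for Nlrp6 and 24.3% for Gsdmc2, while replicate 1 stood at 112% for Nlrp6 and 67.7% for Gsdmc2. For Gsdmd the values were 156% in replicate 1 and 305% in replicate 2.

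**Figure D3:**
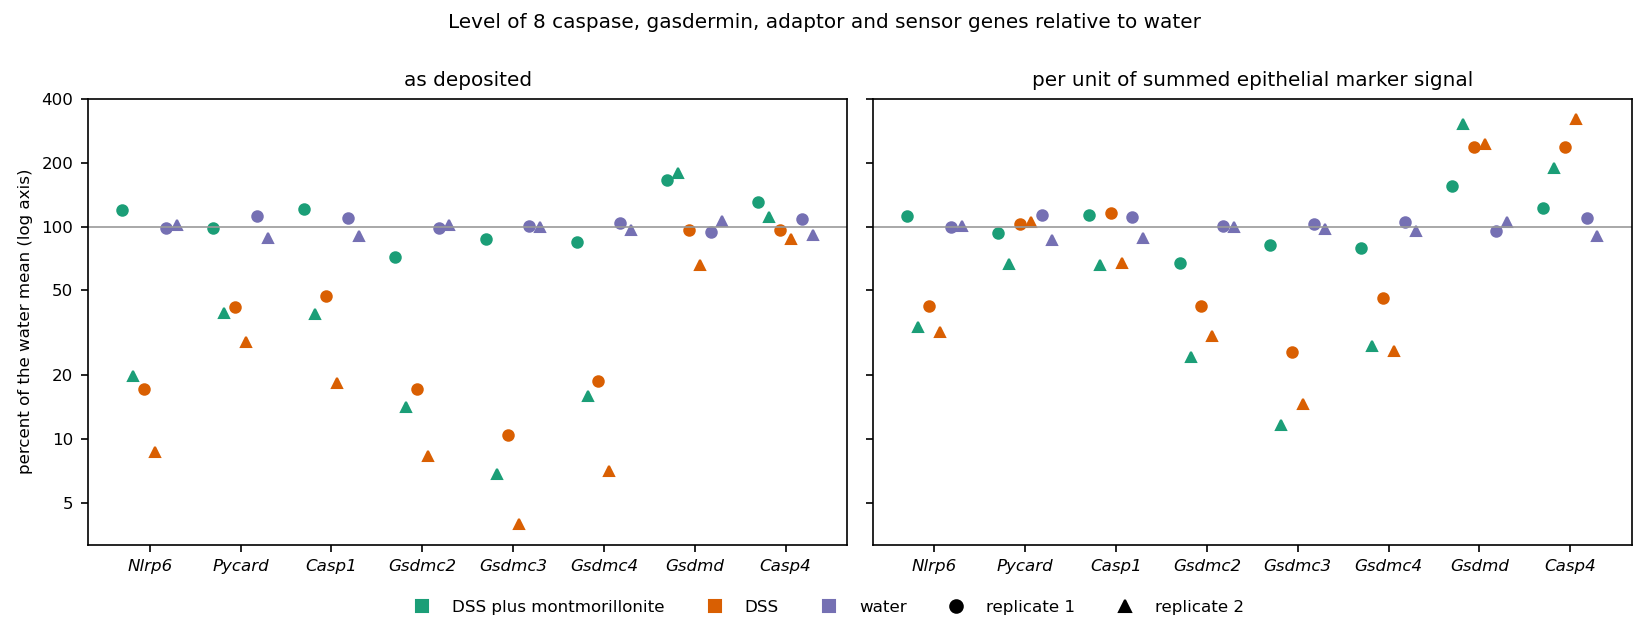
Level of 8 genes in every library as a percent of the water mean (log axis), as deposited on the left and divided by the sum of 10 epithelial markers on the right, with colours for groups and shapes for replicates. On the right, Pycard and Casp1 of the DSS libraries lie around 100% (67.4% to 116%). In the same libraries Nlrp6 and the 3 gasdermin C genes stay at or below 45.9%, and Gsdmd and Casp4 lie at 236% or more. Because the marker sum was lower in DSS than in water, a gene unchanged as deposited lies well above 100% there.

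**Figure D4:**
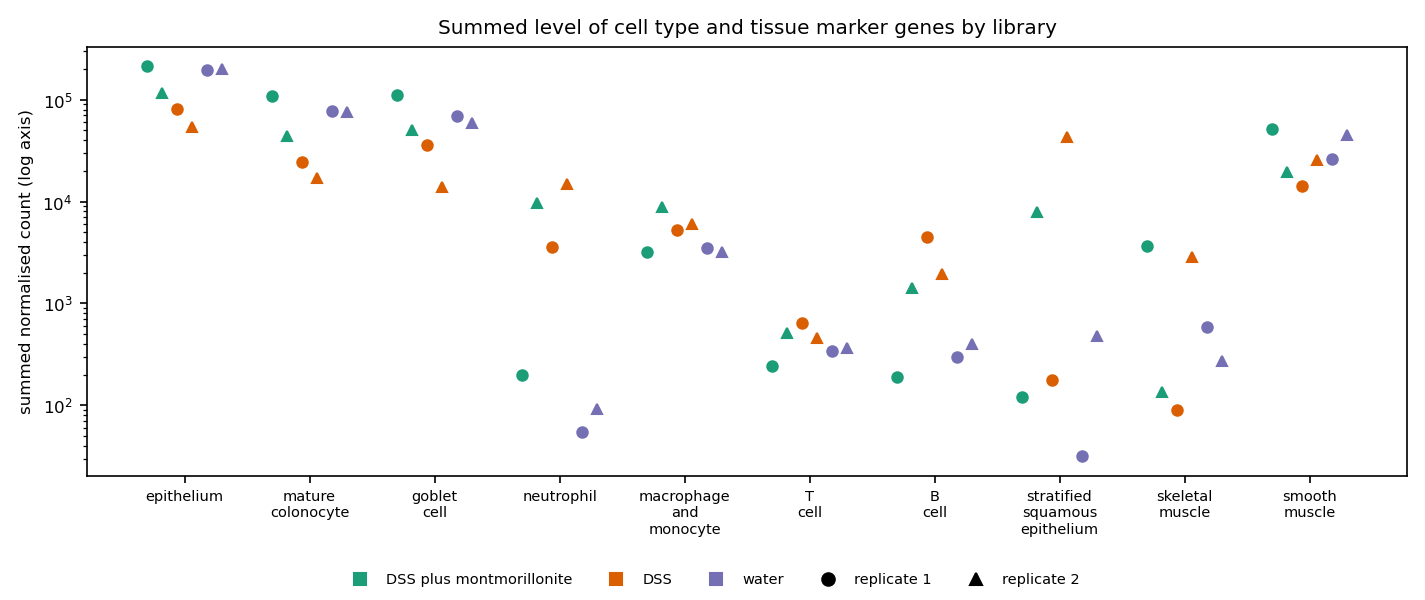
Summed normalised count (log axis) of 10 lists of marker genes in every library, with colours for groups and shapes for replicates. Epithelial sums are lowest in the DSS libraries, and neutrophil sums are high in the DSS libraries and in DSS plus montmorillonite replicate 2. Squamous sums are highest in replicate 2 of DSS and of DSS plus montmorillonite. Skeletal muscle sums are highest in DSS plus montmorillonite replicate 1 and DSS replicate 2.

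The other genes of the pathway were counted from 6 lists of 45 genes, of which 40 were measured and tested; Gsdma2, Gsdma3, Gsdmc, Pydc3 and Pydc4 were not analysed here. In DSS against water 5 of the 40 rose, 6 fell and 29 did not pass, with a median log2 fold change of -0.30, where 15.1% of all genes tested passed and their median was 0.10. In the other 2 comparisons 0 of the 40 passed by limma.

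Among the cytokine substrates and their inhibitors 2 of 5 rose and 1 fell. Il1b, the interleukin-1 beta gene, had 90.6 and 901 in DSS plus montmorillonite, 1165.5 and 1165.4 in DSS, and 30.7 and 40.9 in water. The mean in DSS was 32.5 times that in water (adjusted p = 0.00148), so the cytokine gene rose while Casp1, whose product matures it, fell. The Casp1 call was close to the threshold and was lost in several alternatives. Il1a, a related cytokine gene, rose by 3.91 ± 0.76 on the log2 scale (adjusted p = 0.0265), with only 9 reads over the water libraries. Il18bp, which encodes a soluble decoy of the Il18 product, had a log2 fold change of -1.32 ± 0.23 (adjusted p = 0.0207).

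Il18, the other main substrate of caspase-1 and a product of epithelial cells, had 2228 and 1007 in DSS plus montmorillonite, 688 and 328 in DSS, and 611 and 616 in water. Both DSS plus montmorillonite libraries were above all 4 other libraries, as for Gsdmd and Casp4. The same held for several other pathway genes, among them Casp6, Kcnk6 and Serpinb1a. How many of all genes have this pattern was not counted. The log2 fold change was 1.29 ± 0.41 in DSS plus montmorillonite against water (adjusted p = 0.629) and 1.65 ± 0.55 in DSS plus montmorillonite against DSS (adjusted p = 0.691), and neither passed. In DSS against water it was -0.37 ± 0.35 (adjusted p = 0.513).

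Of 9 other sensors 1 rose, Nlrp12, which in mice dampens NF-kB signalling. It had 0 and 30.9 in DSS plus montmorillonite, 25.8 and 34.0 in DSS, and no read in either water library. With a floor of 3 reads over the water group it was at least 14.4-fold higher in DSS (adjusted p = 0.00899). The NAIP receptors Naip1, Naip2, Naip5 and Naip6 did not pass, with log2 fold changes of -0.83 to -1.35 and adjusted p of 0.0846 to 0.241. Between 19.1% and 36.9% of the 50-base windows of these 4 genes also occurred in other genes, so their separate values are uncertain.

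Among 5 other caspases 1 rose and 4 did not pass. Casp12, an inflammatory caspase gene of the same chromosome 9 cluster as Casp1 and Casp4, had 209.99 and 276 in DSS plus montmorillonite, 299 and 289.5 in DSS, and 149 and 155 in water (log2 0.95 ± 0.20 in DSS against water, adjusted p = 0.0324). It rose under DSS where Casp1 fell, the Casp1 call being close to the threshold. Casp8, which links death receptors to apoptosis, had a log2 fold change of -0.22 ± 0.22 (adjusted p = 0.537).

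Of the 6 other gasdermins and membrane rupture genes tested, Gsdmc3 and Gsdmc4 fell and the rest did not pass. Gsdme, another gasdermin gene, had a log2 fold change of 0.05 ± 0.30 (adjusted p = 0.928). Among 8 regulators, Pstpip1, whose product binds pyrin, rose by 1.98 ± 0.28 on the log2 scale (adjusted p = 0.0124). It had 51.8 and 185 in DSS plus montmorillonite, 178 and 165 in DSS, and 40.3 and 45.5 in water, with both DSS libraries high as for Mefv. Panx1, a membrane channel gene, fell (log2 -1.02 ± 0.19, adjusted p = 0.0239), and so did Serpinb1a, which encodes an inhibitor of neutrophil serine proteases (log2 -1.01 ± 0.19, adjusted p = 0.0230). Of 7 genes for guanylate-binding proteins and Zbp1, Gbp2, an interferon-induced GTPase gene, fell (log2 -2.07 ± 0.30, adjusted p = 0.0134) and 6 did not pass.

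**Figure D5:**
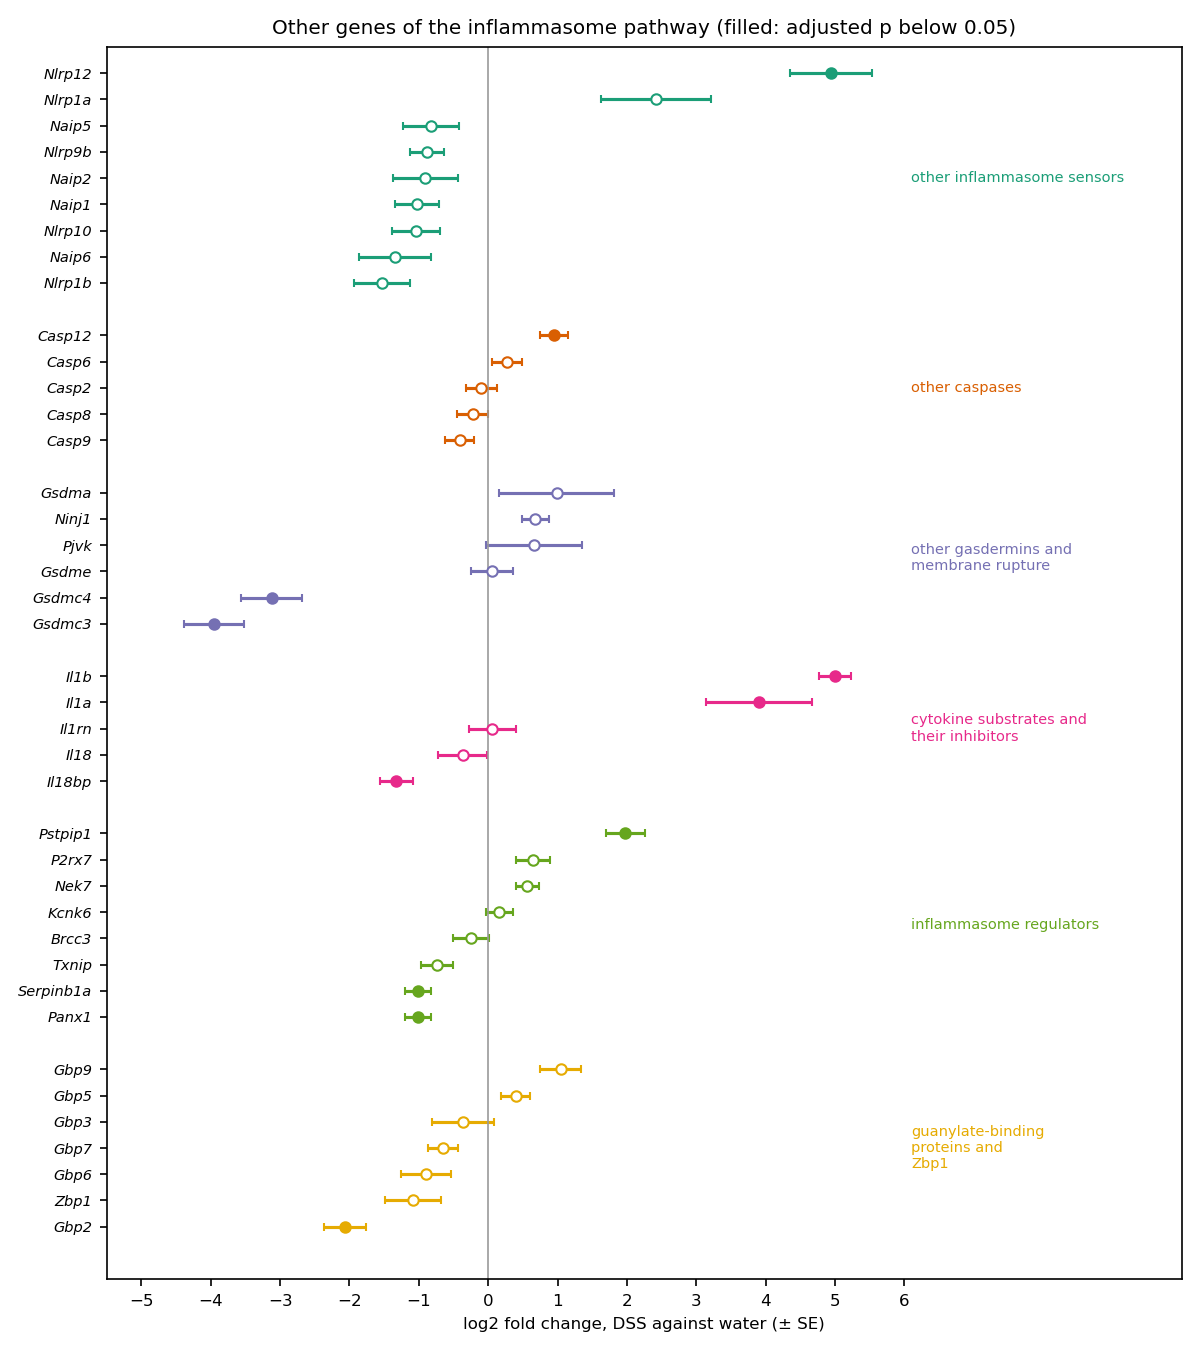
Log2 fold change of DSS against water with its standard error (x axis) for the 40 other pathway genes, grouped by list, with filled points for an adjusted p below 0.05. The filled points are Nlrp12, Casp12, Il1b, Il1a and Pstpip1 to the right of 0 and Gsdmc3, Gsdmc4, Il18bp, Panx1, Serpinb1a and Gbp2 to the left.

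For Nlrp3, Nlrp6 and Pycard genes with a similar pattern were sought by Pearson correlation of log2(value + 1) over the 6 libraries among the 11942 genes that averaged 50 or more, as a description. For Nlrp3 they were Ighv1-55, an immunoglobulin heavy chain variable gene (r = 0.999), Ggt5 (0.999) and Gpr65 (0.998). For Nlrp6 they were Stradb (r = 0.9995), Tmem30b (0.999) and Slc34a2 (0.999). For Pycard they were Cox7a2 (r = 0.9999) and Gjb1 (0.998). The 6 points share the libraries and their size factors.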

How the data were processed

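The table deposited by the authors gives, for each gene, 1 normalised signal value in each library; reads were mapped to mm10 (GRCm38), per the submitters' processing notes, and no source used here names the aligner or the counting and normalising tools. In every library 100% of the deposited signal values were whole multiples of 1 read within 0.01 read, so reads were recovered. The smallest total of a gene was 10 reads. All 6 columns were used. Symbols matched 20483 of 20533 identifiers, and positions came from GENCODE M21.

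The main test was limma 3.58.1 (R 4.3.3) with an intensity trend on log2(value + 1), two-sided, on the 4 libraries of each comparison and the 20307 genes that averaged 1 or more (226 were dropped), so fold changes of low genes are understated. Alternatives were the planned count test, edgeR 4.0.16, and DESeq2 1.42.0, both on recovered reads, other scalings, pseudocounts, filters, a fit of 6 libraries, a block and leaving out each library. Limma and edgeR, but not DESeq2, were run on simulated counts with the same dispersion for every gene. That simulation does not show how the tests behave where libraries of a group lie far apart. The named genes are the 10 genes, every other pathway gene that passed and a few fixed ones (Il1b, Il18, Casp8, Gsdmc3, Gsdmc4, Gsdme), and, for Nlrp3, Nlrp6 and Pycard, the 3 most similar genes; some genes that these rules and the lists take are not reported here, and the lists' counts leave them out. The NAIP genes were named after their values were seen. Members and lists were chosen with earlier results of these data known, in which Nlrp3 and Mefv rose and Nlrp6, Casp1 and Pycard fell, so those directions are not independent support.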

Additional observations from a re-analysis of the deposited data

How the results depend on the processing

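In DSS against water, 3064 genes (1605 higher, 1459 lower) and 6 of the 10 genes passed. With all 6 libraries in the fit 0 genes and 0 of the 10 passed (4662 genes at an unadjusted p below 0.05), where the DSS plus montmorillonite libraries, which lie far apart, share the estimate of spread. Leaving out each library in turn gave 0 to 317 genes and 0 to 2 of the 10, with 1 library in a group and the spread taken from the other. Scaling by library size moved the median of all genes, in DSS against water, to a log2 value of 0.33, and the calls to 2199 higher and 893 lower, without changing the sign of any of the 10 genes other than Casp4. DESeq2 called 202 genes in DSS plus montmorillonite against water and 68 in DSS plus montmorillonite against DSS, where limma and edgeR called 0; the cause was not tested. In DSS plus montmorillonite against DSS, leaving out a library gave 0 to 285 genes and 0 to 2 of the 10. Of 131 alternative values for the 10 genes in DSS against water, 100 stayed on the same side of the threshold, 30 lost their call and 1 gained it, and none that passed changed sign.

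With the replicate number as a block (replicate block), 5084 genes and 7 of the 10, Aim2 added (adjusted p = 0.0171), passed in DSS against water, and 0 in the other comparisons. The labels give the libraries only a shared number. Deviations from the group means correlated between same-numbered libraries at 0.409 (DSS plus montmorillonite with DSS), 0.160 (DSS plus montmorillonite with water) and 0.196 (DSS with water).

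Among the pathway genes called in DSS against water, depth limits Nlrp3, Nlrp12 and Il1a most, with 4, 0 and 9 reads over the water libraries. Several called neutrophil markers were as low there, among them Retnlg and Mmp8 with 0 reads.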
